A study of Mus musculus with 4 samples.

Results

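The T cell receptor variable segment genes were taken as every gene whose symbol starts with Trav or Trbv, which gave 163 of the 32285 genes in the count tables. They were 35 Trbv genes, on chromosome 6 between positions 40891229 and 41558452 of GRCm38, and 128 Trav genes in 23 families, on chromosome 14 between 52427928 and 53977678. Their use was measured in T cells, defined as cells with at least 2 UMIs (unique molecular identifiers, each standing for 1 captured transcript) of Cd3e, Cd3d and Cd3g together and 0 of the B cell gene Cd79a. These were 9921 of the 47169 cells kept, or 21.0%. T cells were CD4 with a Cd4 UMI and no UMI of Cd8a or Cd8b1, CD8 in the opposite case, and coreceptor-negative with UMIs of none of these genes. V segment genes played no part in choosing the cells.

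The receptor of most T cells is a pair of an alpha and a beta chain. Each chain gene is assembled in the thymus by joining a variable (V) segment to a joining segment, with a diversity segment between them in the beta chain, and the V segment supplies the germline part of the surface that touches antigen and the MHC molecule. CD4 cells recognise peptides on MHC class II and CD8 cells on MHC class I, and the mix of V segments used by a T cell population is a common measure of its repertoire. The mouse alpha locus holds several near-identical blocks of V genes, whose copies carry a d or n in their symbols, and some of its V genes, marked dv, can also be joined into the delta chain of gamma delta T cells.

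The data were 4 droplet libraries, from female C57/Bl6 mice aged 6 to 8 weeks. On day 0 each mouse received an intrasplenic injection, of 800000 B16F10 cells (a mouse melanoma line) in the metastasis arm and of saline in the sham arm, followed at once by splenectomy. All mice of both arms then received 250000 B16F10 cells under the skin, so the sham arm also carried a tumour and had no spleen. Lungs and blood were taken on day 7. The protocol names live/dead columns for lungs and density centrifugation of CD45+ cells for blood, and the design text names CD45+ kits without a tissue, so it is unclear which enrichment each tissue had. The labels name the arms by the presence of liver metastasis. Where 4 values follow each other, they are metastasis then sham for lung, and metastasis then sham for blood. There was 1 library for each tissue and arm, the sources used here do not state how many mice a library pools, and lung and blood of an arm may come from the same mice. Differences between arms therefore have no replicate check, and the exact intervals given (95%) cover counting error only.

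The libraries held 112079231 to 132540945 UMIs, of which haemoglobin made up 43.7% to 78.6%. T cells numbered 1955, 5008, 583 and 2375. There were 273, 789, 83 and 545 CD4 cells, 838, 2372, 231 and 1047 CD8 cells, and 811, 1786, 265 and 747 coreceptor-negative cells. Any pair of libraries shared 34 to 52 cell barcodes, at most 0.477% of the smaller library. The beta constant gene Trbc2 was detected in 80% to 97.7% of the cells of each class, and the alpha constant gene Trac in 45.7% to 71.0%. Cd40lg, a CD4 helper gene, was found in 11.4% to 22.4% of CD4 cells and at most 0.764% of CD8 cells, and the cytotoxic granule gene Nkg7 in 60.1% to 79.6% of CD8 cells and at most 6.34% of CD4 cells. Neutrophil transcripts (S100a8, S100a9, Csf3r or Retnlg) were present in 13.1% and 20.4% of CD8 cells of the metastasis lung and blood libraries and in 1.18% and 4.97% of the sham libraries. In CD4 cells the same shares were 15.02%, 0.760%, 18.1% and 3.85%. Their part in the results below was not tested.

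The segments on which the results turn are shown first, with their closest relatives. The last 75 bases of the V exon, up to the point where it is joined, are given below from the GENCODE transcripts on GRCm38, all on the plus strand. Capitals mark the codon of the conserved cysteine that opens the hypervariable junction. The first pair, Trbv12-1 (chr6:41113993-41114067) and Trbv12-2 (chr6:41119290-41119364), are neighbours that matched at 88.3% of the 385 aligned bases of their whole transcripts. Trbv2 (chr6:41047921-41047995) is the other abundant beta segment and Trav14-2 (chr14:53641151-53641225) stands for the Trav14 family.
Trbv12-1: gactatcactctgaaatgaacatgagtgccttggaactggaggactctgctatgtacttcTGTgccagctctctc
Trbv12-2: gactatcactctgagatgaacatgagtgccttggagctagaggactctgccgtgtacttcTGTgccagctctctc
Trbv2: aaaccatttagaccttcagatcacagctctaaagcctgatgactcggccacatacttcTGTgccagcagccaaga
Trav14-2: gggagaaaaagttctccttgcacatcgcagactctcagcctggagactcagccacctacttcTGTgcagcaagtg

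The Trav16 family has 3 genes, Trav16 (chr14:53743631-53743705), its n copy Trav16n (chr14:53351547-53351621) and its d copy Trav16d-dv11 (chr14:53047747-53047821). The same stretch of each is shown next, with capitals at the 2 positions where they are not all alike. Over whole transcripts Trav16 and Trav16n matched at 98.5% and Trav16 and Trav16d-dv11 at 97.4% of aligned bases.
Trav16: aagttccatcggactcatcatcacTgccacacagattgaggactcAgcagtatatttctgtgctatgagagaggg
Trav16n: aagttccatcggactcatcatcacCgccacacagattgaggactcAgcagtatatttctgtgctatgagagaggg
Trav16d-dv11: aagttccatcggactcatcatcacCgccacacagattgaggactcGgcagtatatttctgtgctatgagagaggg

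Because copies this close can share or lose reads in counting, which is not described for these files, single Trav genes are uncertain and Trav genes were summed to families (the number after Trav). A cell was assigned to the Trbv gene, or Trav family, with most of its UMIs of that locus, and cells with ties were left out. The share of a segment is its assigned cells among all assigned cells of the class in a library.

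V segment transcripts were detected in 4.56% to 14.9% of the cells of the T cell classes and in almost no B cells. Any Trbv gene had a UMI in 10.6%, 10.4%, 6.02% and 11.2% of CD4 cells and in 7.76%, 10.3%, 13.9% and 13.2% of CD8 cells. Any Trav gene had a UMI in 9.52%, 8.87%, 13.3% and 14.9% of CD4 cells and in 6.92%, 8.22%, 8.66% and 11.3% of CD8 cells. The CD4 share was the higher one in 4 of 4 libraries for Trav and in 2 of 4, those of lung, for Trbv. Coreceptor-negative cells had 6.04%, 7.67%, 7.92% and 10.7% for Trbv and 4.56%, 8.17%, 6.04% and 11.5% for Trav. In B cells (at least 2 Cd79a UMIs, no Cd3 UMI) a Trbv UMI was seen in 0 of 1841, 1 of 4202, 0 of 1622 and 1 of 7796 cells, and the same numbers of cells had a Trav UMI. The zeros allow shares of up to 0.163% and 0.185%. Median depths were 1838 to 3574 UMIs in B cells against 2867 to 5173 in CD4 and 3436.5 to 6361 in CD8 cells.

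**Figure D1:**
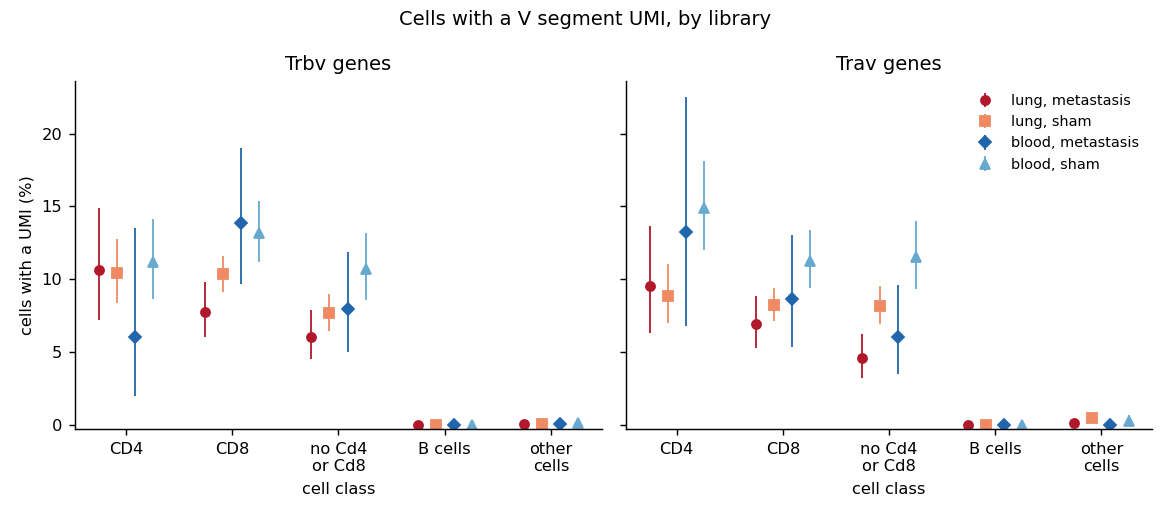
Share of cells with at least 1 Trbv UMI (left) or Trav UMI (right), in percent, by cell class, with 1 point per library and bars for the exact 95% interval. T cell classes lie between 4.56% and 14.9% in all 4 libraries, and B cells at or below 0.0238%.

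Depth moved these shares. Cells with under 1500 UMIs outside haemoglobin were left out and the others were thinned to 1500. The mean over libraries then fell from 9.56% (SD 2.38, n = 4) to 3.31% for Trbv in CD4 cells and from 11.3% (SD 2.80) to 4.01% in CD8 cells. For Trav it fell from 11.6% (SD 2.89) to 4.79% in CD4 cells and from 8.77% (SD 1.82) to 3.35% in CD8 cells. After thinning, all T cells of blood sham, where T cells were sequenced deepest, had the lowest Trbv share (3.09%, against 4.17%, 4.12% and 3.98% in the other libraries in order). For Trav they did not, with 4.06% against 3.15%, 3.43% and 4.50%. A detected cell held 1.00 to 1.37 UMIs of the locus on average in the CD4, CD8 and coreceptor-negative classes. In all, 13.5%, 16.7%, 17.3% and 22.7% of T cells had a UMI of either locus, and 0.460% to 1.64% had UMIs of both, so a paired alpha and beta segment was read in few cells.

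Among beta segments, Trbv12-2 and Trbv2 led in both classes. The T cells held 1066 Trbv UMIs from 23 of the 35 genes, and 934 cells were assigned, with 27 tied. Trbv12-2 (ENSMUSG00000094525) took 21.9%, 20.3%, 12.5% and 14.1% of assigned CD8 cells, on 64, 236, 32 and 135 cells. In CD4 cells it took 13.8%, 15.4% and 13.6% in lung metastasis, lung sham and blood sham, on 29, 78 and 59 cells. Blood metastasis had only 5 assigned CD4 cells, so a share of up to 60% is allowed by its count of 0. Over the 4 libraries the mean share of Trbv12-2 was 17.2% (SD 4.60) in CD8 and 10.7% (SD 7.17) in CD4 cells, and the ranges overlapped.

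Trbv2 (ENSMUSG00000076462) took 7.81%, 8.47%, 21.9% and 8.89% of assigned CD8 cells. In CD4 cells its shares were 20.7%, 8.97%, 20% and 20.3%. Its means were 11.8% (SD 6.76) in CD8 and 17.5% (SD 5.69) in CD4 cells. The high CD8 value came from 7 of the 32 cells of blood metastasis, and the ranges of the classes overlapped here too.

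The other named beta segments each took a mean of under 10% of either class. Named segments were those with a mean share of at least 2% in CD4 or CD8 cells, which 19 of 35 genes reached, 16 of them in CD8 cells. Trbv16 averaged 7.09% of CD8 and 1.71% of CD4 cells, from 31 and 5 cells. Trbv13-2, the Vbeta segment often read in studies of NKT cells and of autoreactive CD4 cells, averaged 6.45% of CD8 and 7.27% of CD4 cells. Trbv29 averaged 4.59% of CD8 and 1.29% of CD4 cells, from 23 and 2 cells. Trbv15 and Trbv19 averaged 6.195% and 5.501% of CD8 cells, and Trbv3 and Trbv12-1 averaged 9.06% and 6.59% of CD4 cells, each with 1 of the 5 cells of blood metastasis behind part of it. Without that library the CD4 means of Trbv3 and Trbv12-1 were 5.41% and 2.12%. The CD4 mean of Trbv16 was 0.565% without lung sham, and that of Trbv29 0.565% without lung metastasis. Trbv4, Trbv5 and Trbv21 reached 2% through CD4 cells alone, on 1, 3 and 4 cells, and each mean was under 0.5% without 1 library (blood metastasis for Trbv4, lung metastasis for the others). For 0 of the 19 named genes did the 4 CD4 values lie apart from the 4 CD8 values, in a comparison where edgeR (below) called 16.6% of all genes. The edgeR call is another criterion, and the share of all genes whose values lay apart was not computed. Each gene also stood at 0% or 20% of the 5 assigned CD4 cells of blood metastasis. A gene at 0% there could not lie above its CD8 values, so little is read from this count.

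**Figure D2:**
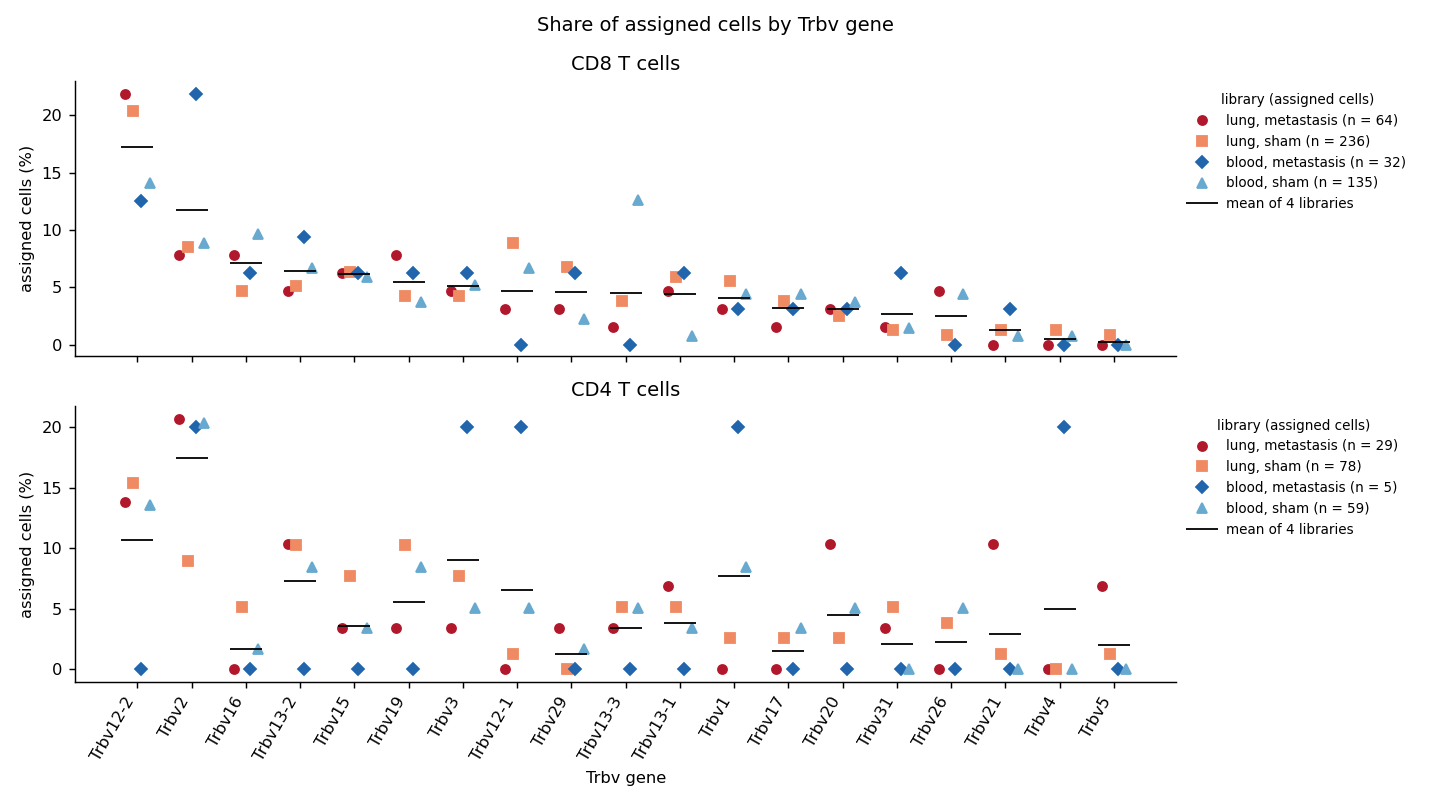
Share of assigned cells (%) by named Trbv gene, in CD8 (top) and CD4 T cells (bottom), ordered by mean CD8 share, with 1 point per library and a black dash for the mean of the 4 libraries. Trbv12-2 and Trbv2 have the highest means in both classes, and the points of blood metastasis CD4 cells rest on 5 cells.

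By mean share, the Trav16 family led alpha chain use in CD8 cells and the Trav14 family in CD4 cells. The shares of each did not overlap between CD4 and CD8 cells. The 30 functional Trav genes with a whole transcript identical to another had no UMI (below). Summing to families does not restore reads lost in counting. A UMI was seen for 3 of 3 Trav16, 5 of 9 Trav14, 4 of 10 Trav12, 2 of 9 Trav5 and 5 of 5 Trav8 genes. Ranks between families are therefore uncertain. The T cells held 1062 Trav UMIs from 75 of the 128 genes, with 860 assigned and 22 tied cells. Trav16 took 26.3%, 28.0%, 25% and 17.2% of assigned CD8 cells (15 of 57, 54 of 193, 5 of 20 and 20 of 116). It took 4.00%, 12.3%, 9.09% and 7.79% of assigned CD4 cells (1 of 25, 8 of 65, 1 of 11 and 6 of 77). The CD4 share was lower in 4 of 4 libraries and the ranges did not overlap, with means of 24.1% (SD 4.75) against 8.30% (SD 3.44).

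The Trav14 family went the other way. It took 20%, 13.8%, 54.5% and 11.7% of assigned CD4 cells (5 of 25, 9 of 65, 6 of 11 and 9 of 77) and 7.02%, 8.29%, 5% and 8.62% of assigned CD8 cells. The CD4 share was higher in 4 of 4 libraries and the ranges did not overlap, with means of 25.02% (SD 19.996) and 7.23% (SD 1.64). The CD4 mean and its SD rest in large part on the 11 assigned CD4 cells of blood metastasis, where 4 of the 6 cells had Trav14d-3-dv8, and without that library the mean was 15.2%.

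**Figure D3:**
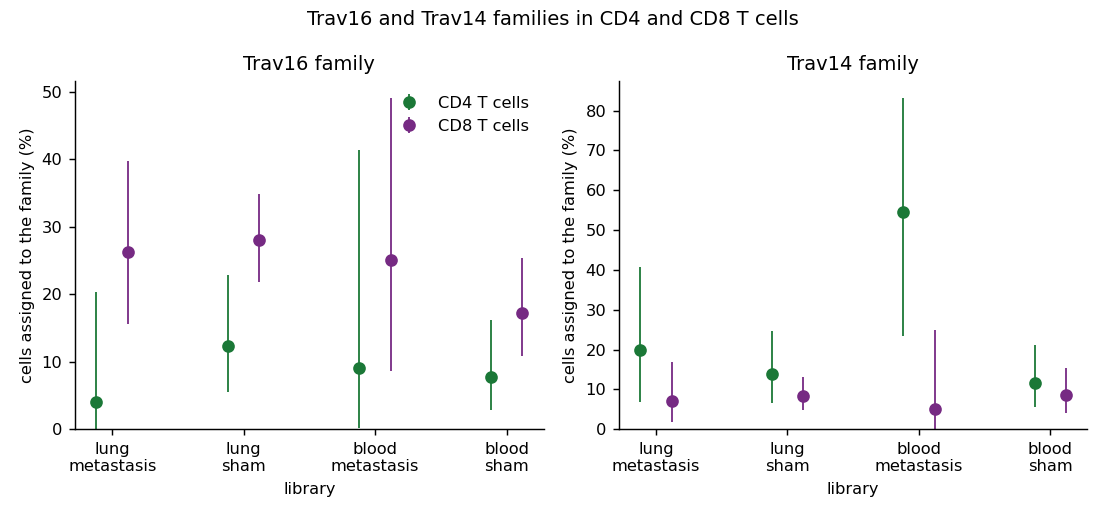
Share of assigned cells (%) in the Trav16 family (left) and the Trav14 family (right), by library, for CD4 and CD8 T cells, with exact 95% intervals. Trav16 lies between 17.2% and 28.0% in CD8 and between 4.00% and 12.3% in CD4 cells, and Trav14 lies higher in CD4 cells in all 4 libraries.

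Of the 10 named Trav families, the highest by mean share, the ranges of CD4 and CD8 cells lay apart in these 2 and overlapped in the other 8. The share of all genes whose ranges lay apart was not computed, so this count has no background. Trav6 averaged 10.7% of CD8 and 7.64% of CD4 cells, and Trav13 8.32% and 8.85%. Trav12, Trav7, Trav3, Trav9, Trav8 and Trav5 averaged 3.65% to 8.19% of CD8 cells and 5.10% to 8.91% of CD4 cells. Without blood metastasis Trav12 averaged 2.16% of CD4 cells and Trav5 1.90% of CD8 cells. In coreceptor-negative cells Trav16 averaged 18.2% and Trav14 16.3%, between the values of the other classes.

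**Figure D4:**
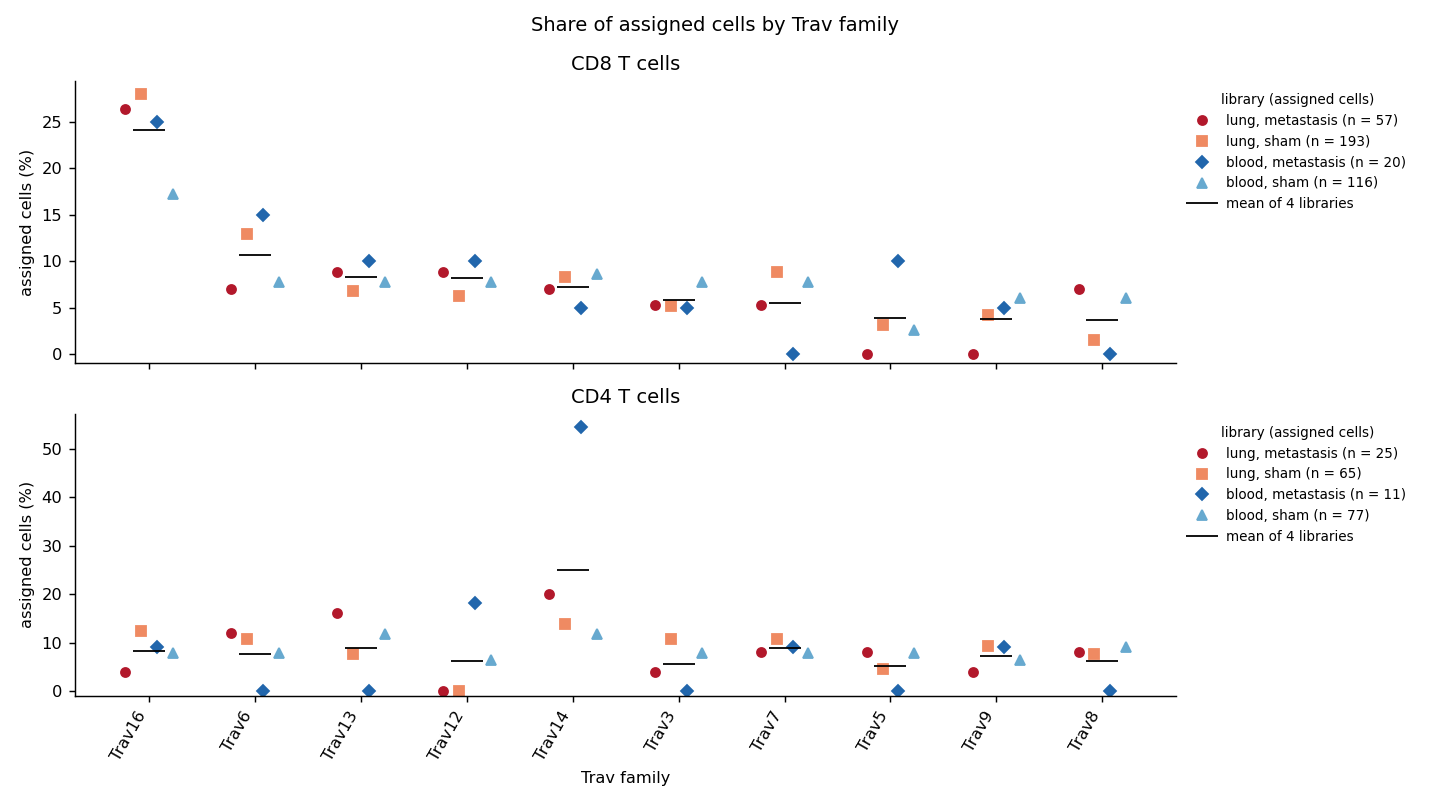
Share of assigned cells (%) by Trav family for the 10 named families, in CD8 (top) and CD4 T cells (bottom), ordered by mean CD8 share, with 1 point per library and a black dash for the mean of the 4 libraries. Trav16 is the highest family in CD8 cells of all 4 libraries and is not in CD4 cells of any.

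UMI sums, which need no assignment, gave the same directions for these families. They count the same transcripts of the same cells and are not a separate check. In CPM (a gene's UMIs scaled by the class total, haemoglobin left out), Trav16 stood at 7.51, 6.30, 4.93 and 3.86 in CD8 cells (21, 63, 5 and 26 UMIs) and at 2.60, 3.35, 3.37 and 2.73 in CD4 cells (2, 9, 1 and 8 UMIs). Trav14 stood at 7.81, 4.83, 23.6 and 4.79 in CD4 cells (6, 13, 7 and 14 UMIs) and at 2.50, 1.90, 1.97 and 2.22 in CD8 cells (7, 19, 2 and 15 UMIs). Within the Trav16 family the 2 main copies were not alike. Trav16 (ENSMUSG00000076855) had 3 UMIs in CD4 and 61 in CD8 cells, while Trav16n (ENSMUSG00000076822) had 16 and 43, with the caution on near-identical copies given above. Among Trav14 genes, Trav14d-3-dv8 (ENSMUSG00000094619) had 16 UMIs in CD4 and 9 in CD8 cells, from fewer CD4 than CD8 cells (1690 against 4488).

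The sums were tested across the 4 libraries with edgeR's quasi-likelihood test, with the library as a block and Benjamini-Hochberg adjustment over all genes tested. With single genes, only 3 of the 163 members passed the filter on low counts, and 0 were called, against 16.6% of all 10258 genes (1699). Trbv2 had a log2 fold change of 0.77 (SE 0.46, CD4 over CD8; edgeR adjusted p = 0.305), Trbv13-2 of 0.64 (SE 0.59; adjusted p = 0.568) and Trbv12-2 of -0.11 (SE 0.37; adjusted p = 0.914). At an unadjusted p under 0.05 there were also 0 members, and DESeq2 called 0. With Trav genes summed to families, a choice made after the data were seen, 8 members were tested, 2 had an unadjusted p under 0.05 and 1 was called, again against 16.6% of all genes (1703 of 10263). The Trav14 family was higher in CD4 cells by 1.501 on the log2 scale (SE 0.42; edgeR adjusted p = 0.0146, DESeq2 adjusted p = 0.0212), and was higher in 4 of 4 libraries. The Trav16 family had a log2 fold change of -0.90 (SE 0.38) and an edgeR adjusted p of 0.125, and was not called. The Trav14 call was lost without cells over 5% haemoglobin (log2 fold change 1.27, edgeR adjusted p = 0.0637), without lung sham (1.60, 0.0598) and with no library block (1.61, 0.107), and over the alternatives its adjusted p ran from 0.00356 to 0.107. The family was not tested under the rule of at least 2 coreceptor UMIs. The members' median log2 fold change was 0.64 over the 3 genes and 0.67 with families, beside -0.00 over all genes. With no filter on low counts it was 0.44 over 96 members and 0.38 over 44 with families, beside -0.035 over all genes. A member can pass the filter through the class where it is high, so nothing is read from these medians. Nothing in the labels says that the libraries are separate sets of mice. With the library as a block, these p-values measure only how the CD4 to CD8 difference varies across these libraries.

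Genes of the rest of the receptor were tested in the same fit. Trac, which carries the constant part of every alpha chain, stood at 351, 335, 374 and 283 CPM in CD4 cells and at 223, 211, 206 and 206 in CD8 cells, with no overlap. It was higher in CD4 cells by 0.56 on the log2 scale (SE 0.07; edgeR adjusted p = 4.0e-06). Trbc1 and Trbc2, the beta constants, had log2 fold changes of 0.18 (SE 0.06; edgeR adjusted p = 0.0563) and 0.10 (SE 0.05; adjusted p = 0.231). Trdc, Tcrg-C2 and Tcrg-C4, constants of the delta and gamma chains, were lower in CD4 than in CD8 cells, by log2 fold changes of -1.13, -2.39 and -1.75 (edgeR adjusted p = 0.00318, 0.0166 and 0.0329). They stood at 0 in the CD4 cells of blood metastasis, and DESeq2 called none of the 3.

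The counts by list stand beside 16.6% of all 10258 genes called in this fit, 891 higher and 808 lower in CD4 cells. By list, 1 of the 6 constant genes tested was higher and 3 were lower in CD4 cells, of 7 listed. In the CD3 complex Cd247, the zeta chain, was higher (0.22, edgeR adjusted p = 0.0260) and 3 of 4 genes did not pass, of which Cd3e, Cd3d and Cd3g chose the cells. Of 10 signalling genes 5 were higher and 1 lower. Cd5, a surface receptor that dampens receptor signals, was higher by 1.31 (SE 0.09; edgeR adjusted p = 1.2e-10). It stood at 133, 119, 111 and 127 CPM in CD4 cells and at 44.7, 44.7, 45.3 and 52.2 in CD8 cells. The costimulatory receptor Cd28 (0.56), Cd6 (0.38), the adaptor Lat (0.35) and the kinase Fyn (0.27) were also higher, while the kinase Lck was lower (-0.33). Of the recombination genes Rag1, Rag2 and Dntt, Rag1 was lower in CD4 cells (-2.41, edgeR adjusted p = 0.0349), on 4, 0, 0 and 0 UMIs in CD4 and 22, 28, 0 and 18 in CD8 cells. Of 87 other V and joining segments none passed the filter. The list medians ran from -1.68 (recombination) to 0.19 (signalling).

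Metastasis and sham libraries could be compared for few segments, since a comparison needed 20 assigned cells over both libraries. In lung CD8 cells 7 segments qualified, of which 0 were higher and 3 lower by at least 1.5-fold in metastasis. In the same cells 15.4% of all 10727 genes differed by 1.5-fold in the share of cells with a UMI (1.88% higher, 13.5% lower). That share is not taken among assigned cells and moves with depth. The 2 measures are therefore not alike, here and in the comparisons below. Trbv12-1 took 3.12% in metastasis (2 of 64) and 8.90% in sham (21 of 236), a ratio of 0.351 (interval 0.0399 to 1.44). Trav6 took 7.02% and 13.0% (ratio 0.542, 0.137 to 1.57), and Trav7 5.26% and 8.81% (ratio 0.598, 0.112 to 2.07). The interval of every one of the 7 ratios included 1, so no difference in lung CD8 cells was detectable at this depth.

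The other 4 segments compared in lung CD8 cells had ratios between 0.846 and 1.08, with wide intervals. Trbv12-2 had a ratio of 1.08 (0.548 to 1.98), Trbv2 of 0.922 (0.270 to 2.53), Trav16 of 0.941 (0.493 to 1.69) and Trav14 of 0.846 (0.206 to 2.62). In blood CD8 cells 2 segments qualified, Trbv12-2 with 0.888 (0.220 to 2.67) and Trav16 with 1.45 (0.425 to 3.98). Neither passed 1.5-fold, where 35.4% of 9715 genes did by share of cells with a UMI (1.56% higher, 33.8% lower). In CD4 cells 0 segments reached 20 assigned cells in either tissue.

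Taking all T cells of a library together gave more cells, and still no ratio whose interval lay away from 1. In lung 22 segments were compared, of which 1 was higher and 5 lower by at least 1.5-fold. These 6 of 22 stood against 12.3% of 12030 genes by share of cells with a UMI (2.34% higher, 9.96% lower). In blood 15 were compared, with 3 higher and 6 lower, against 32.4% of 11242 genes (3.22% higher, 29.2% lower). Trbv2 took 13.7% against 8.63% in lung (ratio 1.59, 0.877 to 2.79) and 18.3% against 12.3% in blood (1.49, 0.680 to 3.01). Trbv13-3 took 1.37% against 3.98% in lung (0.344, 0.0387 to 1.44) and 1.67% against 7.97% in blood (0.209, 0.00507 to 1.29). Trbv12-1 in lung stood at 0.357 (0.0692 to 1.17) and Trbv29 at 0.442 (0.0845 to 1.48). After Trbv2 the highest ratios in lung were those of Trbv19, at 1.19 (0.512 to 2.55), and Trbv13-2, at 1.15 (0.558 to 2.23). In blood Trav12, Trav16 and Trav9 had the highest ratios, at 1.96, 1.90 and 1.84, and Trav7 at 0.470 and Trbv16 at 0.484 were low beside Trbv13-3. The median log2 ratio of the segments compared was -0.25 in lung and -0.30 in blood. By the other measure, the share of cells with a UMI of a single gene, the median log2 ratio was -0.64 over 17 members and -0.23 over all genes in lung, and -0.32 over 8 members and -0.41 over all genes in blood. By that measure 9 of the 17 and 3 of the 8 members passed 1.5-fold. The metastasis libraries had the lower median depth of T cells, at 3053 against 3881.5 UMIs in lung and 3888 against 5622 in blood, and its part in this was not tested.

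**Figure D5:**
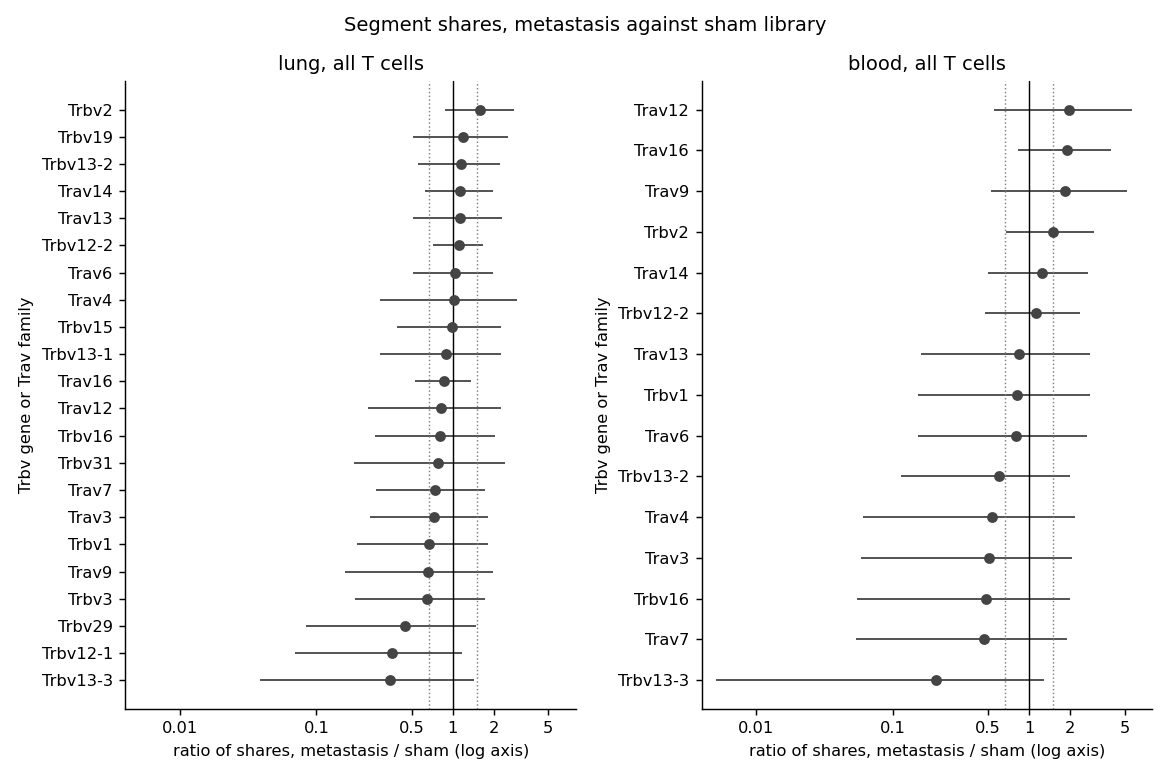
Ratio of segment shares, metastasis over sham, in all T cells of lung (left) and blood (right), on a log axis, with exact conditional 95% intervals, a line at 1 and dotted lines at a 1.5-fold difference either way. Every interval crosses 1. Trbv2 lies above 1 in both tissues (1.59 and 1.49) and Trbv13-3 below (0.344 and 0.209).

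Segment profiles were also compared between the arms as a whole. Across the 21 Trav families seen in all T cells of lung, Spearman's rho between the arms was 0.93, and 11.2% of the assigned cells would have to change family to make the profiles equal. For Trbv in lung rho was 0.77 over 23 genes, with 17.2% differing. In blood, where 48 and 60 cells of the metastasis library were assigned, rho was 0.69 for Trav (29.7% differing) and 0.53 for Trbv (23.4%). Within the classes, on fewer cells, the profiles were less alike. In lung CD8 cells rho was 0.61 for Trav (22.5% differing) and 0.55 for Trbv (22.1%), and in lung CD4 cells 0.57 (30.8%) and 0.39 (39.5%). In blood CD8 cells it was 0.59 for Trav (35.2%) and 0.32 for Trbv (36.3%), and in blood CD4 cells, with 11 and 5 cells of the metastasis library assigned, 0.13 (59.7%) and 0.19 (61.4%). Coreceptor-negative cells had 0.78 (21.7%) and 0.70 (23.9%) in lung and -0.14 (63.97%) and 0.27 (37.0%) in blood, for Trav and Trbv. These are descriptions across segments, which share their libraries and are not independent.

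Lung and blood were compared within the sham arm, which had the larger libraries. In CD8 cells 13 segments qualified and 4 passed 1.5-fold. By share of cells with a UMI, 35.9% of 11081 genes did (4.02% higher and 31.9% lower in lung). Trbv13-3 took 3.81% of lung and 12.6% of blood cells (9 of 236 and 17 of 135), a ratio of 0.303 (0.119 to 0.718), the only one of the 13 whose interval excluded 1. Trbv16 stood at 0.484 (0.196 to 1.17), Trav6 at 1.67 (0.754 to 4.07) and Trav16 at 1.62 (0.956 to 2.86). The Trbv13-3 difference was not detectable in the metastasis arm, where it had 1 CD8 cell in lung and 0 of 32 in blood, which allows a share of up to 9.38%.

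In all T cells of the sham arm 28 segments were compared and 9 passed 1.5-fold. By share of cells with a UMI, 41.2% of 12522 genes did (4.95% higher and 36.3% lower in lung). Trav16 took 22.4% of lung and 10.99% of blood cells, a ratio of 2.04 (1.34 to 3.17). In coreceptor-negative cells it took 20% and 6.17% (ratio 3.24, 1.24 to 10.7). In the metastasis arm Trav16 took 19.4% and 20.8% of all assigned T cells, a ratio of 0.929 (0.428 to 2.18), so the lung excess was seen in 1 arm only and whether the arms differ was not tested. Trbv13-3 had a ratio of 0.4996 (0.253 to 0.976) and Trbv12-2 of 1.49 (1.00 to 2.24).

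Tested over both arms with the arm as a block, no V segment passed the threshold between lung and blood. With a single pair of libraries in each arm, the fit had little from which to measure spread. The absence of calls among these sparse genes therefore says little. In CD8 cells 4 members passed the filter and edgeR called 0, against 14.6% of 10417 genes, with 0 at an unadjusted p under 0.05. DESeq2 gave these members no adjusted p. Trbv12-2 had a log2 fold change of 0.54 (SE 0.38, lung over blood; edgeR adjusted p = 0.391) and Trbv2 of -0.70 (SE 0.56; adjusted p = 0.463). The Trav16 family stood at 0.57 (SE 0.35; adjusted p = 0.308) when families were summed. In CD4 cells 0 members passed the filter, where 10.7% of 8886 genes were called, and the Trav14 family, testable only as a sum, had -0.63 (SE 0.60; edgeR adjusted p = 0.635). Of the constant genes 0 of 6 tested differed in CD8 cells and 0 of 3 in CD4 cells. Lck (-0.65) and Lcp2 (-0.51) were lower in lung CD8 cells, and in lung CD4 cells Lcp2 (-0.50) was lower and Cd28 (0.45) higher, out of 10 signalling genes.

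Ratios of CD4 to CD8 shares within a library, under the same minimum of 20 assigned cells, could be formed only in the sham arm. In lung sham 9 segments were compared and 4 passed 1.5-fold, and in blood sham 3 of 4. By share of cells with a UMI, 23.4% of 10707 genes did in lung sham (3.57% higher and 19.8% lower in CD4 cells). In blood sham it was 18.9% of 10219 genes (5.52% higher, 13.4% lower). Trav16 had a CD4 to CD8 ratio of 0.440 (0.181 to 0.930) in lung and 0.452 (0.149 to 1.17) in blood. Trbv12-1 in lung was assigned to 1 of 78 CD4 and 21 of 236 CD8 cells (ratio 0.144, 0.00348 to 0.896), though in blood its shares were 5.08% and 6.67%. Trav14 in lung had a ratio of 1.67 (0.651 to 4.01) and Trbv2 in blood 2.29 (0.940 to 5.57).

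Some cells carried UMIs of more than 1 segment of a locus. The beta locus is held to a single productive chain in most T cells and the alpha locus is not. Of T cells with at least 2 Trbv UMIs, 2 of 9, 21 of 41, 0 of 6 and 9 of 36 had a pair of Trbv genes, and of those with at least 2 Trav UMIs 2 of 17, 9 of 54, 1 of 5 and 19 of 74 had a pair of Trav families. Over the libraries these are 34.8% (32 of 92, interval 25.1 to 45.4) for Trbv and 20.7% (31 of 150, 14.5 to 28.0) for Trav. Lung sham gave 21 of the 32 Trbv cells, at 51.2% of its cells. Thinned to 1500 UMIs the values were 31.2% (5 of 16) and 13.6% (3 of 22). Among these cells of lung sham, those with a pair of Trbv genes had a median doublet score of 0.0685 and 4152 UMIs, against 0.0788 and 4410 in those with 1 gene. For pairs of Trav families the medians were 0.0510 and 4866 against 0.0567 and 3974. In blood sham they were 0.0294 and 6388 against 0.0294 and 6306 for Trbv, and 0.0399 and 6423 against 0.0364 and 5696 for Trav. The metastasis libraries had 0 to 2 such cells for each locus. In lung metastasis these had 5276.5 UMIs against 3417 for Trbv and 3259.5 against 3316 for Trav, and in blood metastasis 3055 against 3588 for Trav, with lower scores each time. Neither measure was higher in the pairs of every library. Trbv12-2 was in 15 of the 32 pairs, 4 of them with Trbv19, and 0 cells had 3 or more segments. As Trbv12-2 also took 19.9% of all assigned T cells of lung sham, nothing is read from its number of pairs. The part of doublets or free RNA in these pairs was not tested further.

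Segments shared with the delta locus and those of invariant T cells were looked for by name. A dv gene was present in 20.2% of CD4 cells with a Trav UMI (38 of 188, interval 14.7 to 26.7) and 16.1% of such CD8 cells (63 of 391, 12.6 to 20.1), over all libraries. In coreceptor-negative cells it was present in 50% (11 of 22, 28.2 to 71.8) of those with a Trdc UMI and in 15.2% (40 of 263, 11.1 to 20.1) of those without. By library the cells with Trdc gave 1 of 4, 3 of 6, 0 of 1 and 7 of 11, so most of the count came from blood sham. Trav11, the segment of invariant NKT cells, was assigned to 0, 4, 2 and 0 T cells, and Trav1, that of MAIT cells, to 0, 1, 0 and 2. Trav11 matches Trav11d at all of the 342 aligned bases, and genes with such a copy were mostly at 0 (below), so the zeros of Trav11 set no limit on its use. Those of Trav1 allow shares of up to 2.42% in lung metastasis and 6.25% in blood metastasis. Trdv and Tcrg-V genes, delta and gamma variable segments, had 70 and 83 UMIs in coreceptor-negative cells, 39 and 20 in CD8 and 14 and 2 in CD4 cells. The Trbj and Trbd genes had 0 UMIs in all of these classes and 60 Traj genes had 16 to 17 in each.

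The members also differed in how they could be seen at all. Of 22 Trbv genes annotated as functional by GENCODE, 21 had a UMI in T cells, with Trbv30 at 0, while 11 of 13 Trbv pseudogenes were at 0 and pseudogenes held 1.41% of Trbv UMIs (Trbv24 and Trbv12-3). Of 108 functional Trav genes 69 had a UMI, and 6 of 20 Trav pseudogenes, with 2.64% of Trav UMIs. Of the 41 functional Trav genes that matched another at 100% of aligned bases, 30 had a whole transcript identical to another, and 30 of these 30 were at 0. The other 11, which differ from their copy in length or by gaps, were at 0 in 6 cases and held 21 UMIs in the other 5. Among genes whose closest copy matched under 97%, or that had no other gene in their family, 1 of 27 was at 0. It was Trav23, which has no other gene in its family. The group from 99% to under 100% had 1 of 14 at 0 and that from 97% to under 99% had 1 of 26. Symbols with no d or n held 71.7% of Trav UMIs (55 genes), n copies 17.4% (34 genes) and d copies 10.9% (39 genes), with near the same split in CD4 (73.6% with no letter) and CD8 cells (73.2%). Across the 108 functional Trav genes, genes farther from the constant gene had fewer UMIs (Spearman's rho -0.50), which is a description only, since the d and n copies are the more distant ones. Across the 22 functional Trbv genes the same rho was 0.37.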

How the data were processed

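Single-cell RNA of CD45-enriched cells was measured in 4 libraries. The authors deposited raw UMI counts per gene and barcode, with no normalisation. The submitters' processing notes name GRCm38.p6, Cell Ranger 7.0.0, R 4.3.1 and Seurat 4.3.0.1 without their roles, and the sources used here do not state which end of the transcript was sequenced. Cells needed 200 detected genes and no more than 10% mitochondrial UMIs, and Scrublet (scanpy 1.11.5, expected rate 10%) scores over 0.3 removed 394, 689, 114 and 755 cells. UMIs were summed per library and class and tested with edgeR 4.0.16 (TMM, filterByExpr, R 4.3.3), with DESeq2 1.42.0 as an alternative and a threshold of 0.05 on the adjusted p. On simulated counts for CD4 against CD8 cells (10095 genes), edgeR recovered 86% of genes changed by 1 on the log2 scale and 100% of those changed by 2. The changed genes were drawn from those with at least 200 UMIs in these cells, with the same spread set for all genes. The V members tested had fewer UMIs (Trbv12-2 had 31 in CD4 and 101 in CD8 cells), so these rates do not cover them. Shares have Clopper-Pearson intervals, ratios exact conditional binomial intervals, and a count of 0 is given the limit of 3 cells. Sequences, gene types and positions are from GENCODE vM21, and all 163 members matched by gene ID. Named Trbv genes had a mean share of at least 2%, and named Trav families were the 10 highest. For metastasis against sham, in CD8 cells and in all T cells, the 3 highest and 3 lowest ratios were named. Trbv13-2, Trbv29, Trav11, Trav1 and the constant genes were always named. Other segments in the text were picked after their values were seen. Members, lists and tests were chosen with earlier results of these data known. Alternatives were stricter cells (400 genes, 5% mitochondrial), doublets kept, cells over 5% haemoglobin left out, at least 2 coreceptor UMIs, at least 4 Cd3 UMIs, thinning, other assignment rules, no filter, no block and each library left out, also for mean shares (added later).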

Additional observations from a re-analysis of the deposited data

Results flagged for a closer look

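V segment UMIs were also present in some cells with neither Cd3 nor Cd79a UMIs. A share is given here where more than 3 cells had one, which is the limit that a count of 0 allows, and passing it says only that such cells were seen. Trbv UMIs were in 0.0928% of these cells of lung metastasis (8 of 8622, limit 0.0348%) and in 0.0674% of those of blood metastasis (4 of 5933, limit 0.0506%). Trav UMIs were in 0.128% of them in lung metastasis (11 of 8622), in 0.485% in lung sham (16 of 3302, limit 0.0909%) and in 0.302% in blood sham (5 of 1656, limit 0.181%). The rest were at or under that limit, with Trbv in 3 of 3302 cells of lung sham and 2 of 1656 of blood sham and Trav in 0 of 5933 of blood metastasis. Of the 48 such cells, 23 had Trac, Trbc1 or Trbc2 UMIs, 22 had the NK cell genes Ncr1 or Klre1 and 5 had S100a8.

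Trav22, a Trav pseudogene in GENCODE (chromosome 14, 53926978 to 53927595), held 21 of the 34 Trav UMIs outside T and B cells, in 20 cells, of which 18 had Ncr1 or Klre1 and 11 had a constant gene. It was singled out after its values were seen. It had a UMI in 0.583% of cells with Ncr1 or Klre1 (18 of 3088, exact interval 0.346 to 0.920), in 0.0122% of the other cells without Cd3 and Cd79a (2 of 16425) and in 0.121% of T cells (12 of 9921). By library it was in 5 of 992, 9 of 1813, 0 of 48 and 4 of 235 cells with Ncr1 or Klre1.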

How the results depend on the processing

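For CD4 against CD8 cells the count of members called went from 0 to 1 with no filter on low counts (Trav16, log2 fold change -2.66, edgeR adjusted p = 0.00636) and to 1 with Trav families. It was 0 when any library was left out. The count of all genes called, 1699, became 832 with at least 2 coreceptor UMIs, 958 with DESeq2, 322 with no library block and 1056 without lung sham. For lung against blood it went from 951 to 346 and 145 (at least 2 coreceptor UMIs, DESeq2) in CD4 cells and from 1519 to 326 (DESeq2) in CD8 cells. Trbv12-2, at -0.11, was at 0.0278 without cells over 5% haemoglobin, and Trbc1 in CD4 cells of lung against blood, at 0.19, was at -0.13 with at least 2 coreceptor UMIs. Neither was called, and the cause was not tested. The 3 segments past 1.5-fold between metastasis and sham became 0 after thinning (2 compared), 0 with at least 2 UMIs of the segment (0 compared), 10 by share of UMIs (18 compared) and 15 in all T cells (37 compared). Over all alternatives that gave a value, 64 of 64 ratios stayed inside the main interval. These included the share of UMIs and all cells of the class as denominator. The intervals were wide and the cells overlapped, so this says little about stability. Detection moved with thinning only, to 3.31% and 4.79% in CD4 and 4.01% and 3.35% in CD8 cells (Trbv, Trav), and the Trav pairs per cell to 13.6%. The blocks were the library and the arm, and the replicate number, 1 in every group, paired nothing. Few UMIs per cell limit all values.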
